A study of Salmo salar with 16 samples.

Results

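The Atlantic salmon liver transcripts lect2a (probe C159R112) and helz2a (probe C065R088) are described here in 16 fish of a feeding trial. They are 2 of the 43689 probes on a salmonid oligonucleotide array, and both belong to the 25061 probes that were unflagged on at least 12 of the 16 arrays. The probes were chosen by the difference between the diets on slides C and D (the 4 slides are named A to D in the order of their serial numbers), where rank products (a ranking of probes over all pairs of fish of different diets) selected both as lower in the high ω6 fish. The difference between the diets on slides C and D is therefore given as a description only, and the diets were tested only in the fish of slides A and B. The correlations between the 2 transcripts used fish of all 4 slides. The gene names come from the study, since the deposited files pair no probe with a gene and give no genome position. The study also measured both transcripts by quantitative PCR. It reported helz2a as significantly lower in the high ω6 than in the high ω3 fish, and lect2a as lower without significance.

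The study asked whether the balance of ω6 and ω3 fatty acids in a plant-oil diet changes the liver transcriptome. Juvenile Atlantic salmon (post-smolts) were fed for 12 weeks in seawater. Of the fish measured on the arrays, 8 had the high ω6 diet, which holds more ω6 than ω3. The other 8 had the high ω3 diet, which holds more ω3 than ω6. Both diets contained the same proteins and differed in the mix of vegetable oils, and there were no untreated fish. The fish on the arrays were 2 from each of the 4 tanks of a diet. They were fasted before sampling, and the study had taken fish with a weight gain near the mean of their tank. RNA from a piece of each liver was labelled with Cy5 and hybridised together with a Cy3-labelled pool of RNA from all 16 fish. Levels are therefore given as a log2 ratio of 1 fish over the pool, where 0 stands for the level of the pool and each step of 1 for a factor of 2. Fewer cells of a type and less RNA per cell cannot be told apart in such samples, and markers of cell types could not be examined because the files used here give the probes no gene names.

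LECT2 is a protein that the liver secretes into the blood. It was first known in mammals as a factor that attracts neutrophils, and it is made mainly by hepatocytes. In fish, transcripts of lect2 are known to respond to bacterial infection. HELZ2 is a large helicase of the nucleus that acts as a coactivator of PPARα, the receptor through which fatty acids regulate lipid oxidation in the liver, and in mammals its gene is also induced by interferon. Salmonids carry pairs of duplicated genes, and the study distinguished the paralogues lect2a and lect2b as well as helz2a and helz2b. The sequences of both array probes were not used here, so how far a probe also binds its paralogue was not examined.

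The arrays differed in quality. Between 21202 and 41311 spots per array were unflagged, with the lowest numbers on slides A and B. The array of high ω6 fish 4 stood apart, with an SD of its log2 ratios over probes of 1.30, against 0.52 to 0.66 on the other 15 arrays. The lowest Pearson r between a pair of arrays over all probes was -0.30, between this array and that of high ω3 fish 7. The dyes are stated in the labels and were the same on all arrays, so the direction of the ratio was kept. The study had left slide A out of its own comparisons after no gene was called with it, giving high background signal as the reason. Nothing in the labels ties arrays of a slide to a shared extraction or labelling, and a slide is treated below as the glass on which 4 arrays, 2 per diet, were hybridised.

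The lect2a probe was bright in the pool and varied widely between fish. Its Cy3 signal, from the same pool on every array, ranged from 13120 to 39341 intensity units (median 30622, n = 16 arrays). Its Cy5 signal, from the single fish, ranged from 1604 to 65535 (median 3503) in the 8 high ω6 fish and from 1065 to 33703 (median 7106) in the 8 high ω3 fish. The highest of these signals, of high ω6 fish 4, was saturated and hence a lower bound. Among the other 15 fish the highest signal was 33703, 31.6 times the lowest, against 2.48 times for the pool on the same arrays. All 16 Cy5 spots exceeded their local background, by a factor of 3.54 to 76.4, so that low values of lect2a were measured above background in every fish. The 2 lowest factors, 3.54 and 3.67, belonged to high ω3 fish 7 and 8 on slide A.

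The helz2a probe was close to background in the fish. Its Cy5 signal ranged from 700 to 8062 (median 968) in the high ω6 fish and from 663 to 1907 (median 1447) in the high ω3 fish, over local backgrounds of 383 to 1078 in the high ω6 fish and 319 to 826 in the high ω3 fish. Without high ω6 fish 4, the highest signal of the high ω6 fish was 1718. The signal was more than 2 times the local background in 3 of 8 high ω6 fish and in 5 of 8 high ω3 fish. The quantification software marked the Cy5 channel of this spot as empty in 5 high ω6 fish and 8 high ω3 fish, and a spot was flagged only where both channels carried that mark. In high ω6 fish 3 the signal was 700 over a background of 665, a factor of 1.05. The Cy3 signal of the pool, from 1025 to 2740, was more than 2 times its background on all 16 arrays, with a lowest factor of 2.36. The software still marked the Cy3 channel as empty on 3 of these arrays. On the array of high ω6 fish 2 the local Cy3 background was 1.

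**Figure D1:**
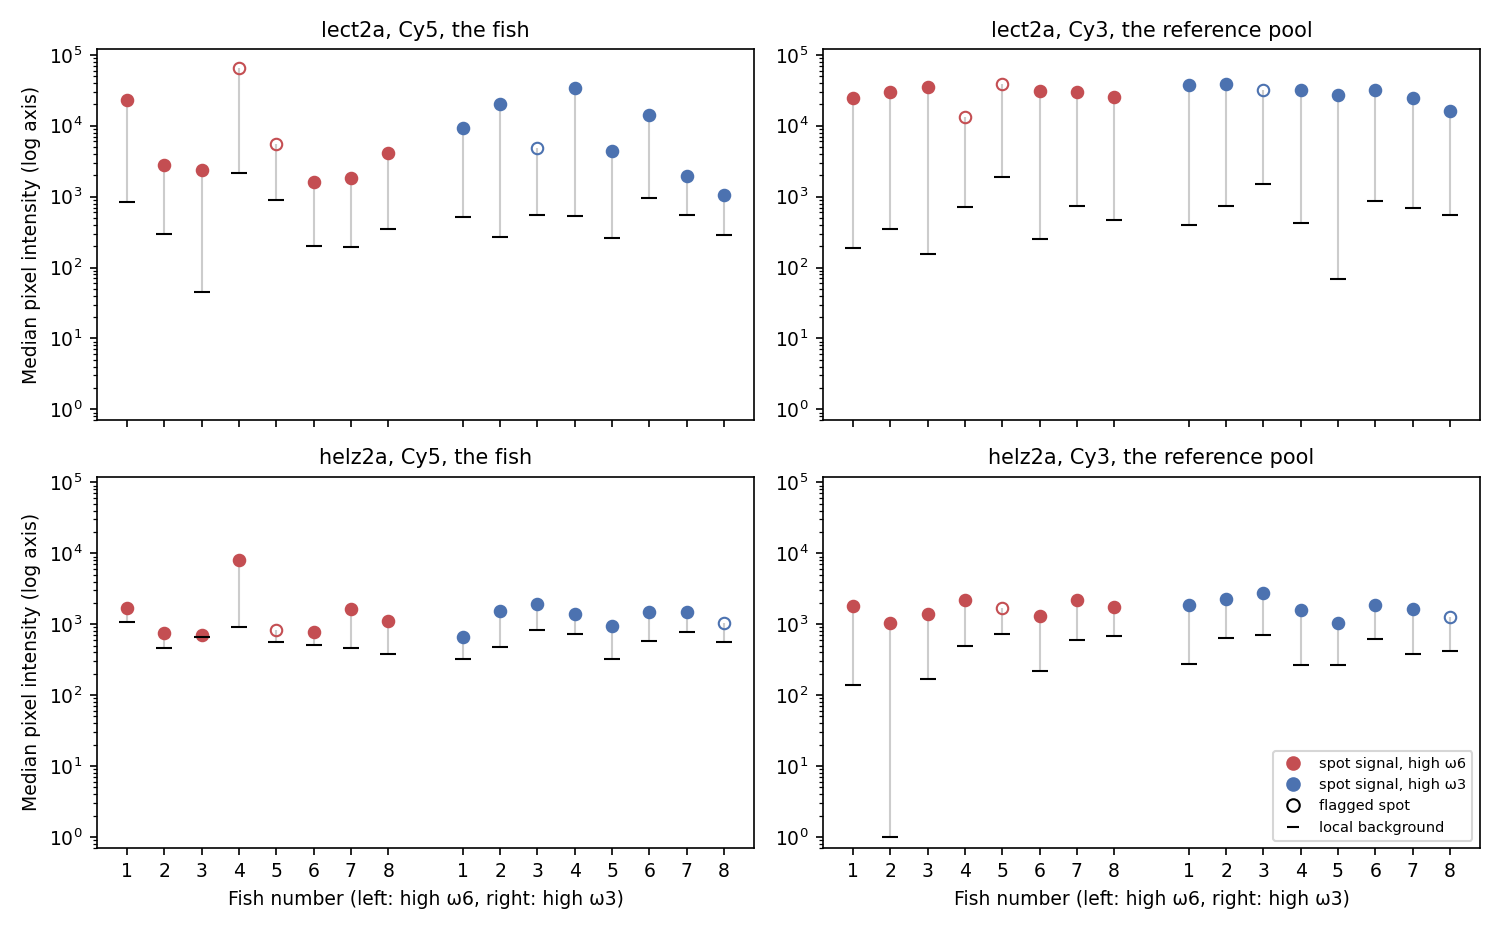
Median pixel intensity of the spots (circles) and of their local background (dashes) on a log axis, for lect2a (top) and helz2a (bottom), in Cy5, the fish (left), and Cy3, the reference pool (right), with the 8 high ω6 fish left of the 8 high ω3 fish. Open circles are flagged spots. The Cy5 signals of lect2a run from 1065 to 65535 while those of its pool stay between 13120 and 39341, and for helz2a 8 of the 16 Cy5 signals are not more than 2 times their background.

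Flagged spots were not spread evenly. For lect2a, 3 of 16 spots were flagged as poor, all of them on slide B, and these were both high ω6 fish of that slide and 1 of its 2 high ω3 fish. All 3 were marked for contaminated background, and the spot of high ω6 fish 4 was also saturated in Cy5, at 65535. For helz2a, 2 of 16 spots were flagged as empty, those of high ω6 fish 5 and high ω3 fish 8. This left 13 values for lect2a (6 high ω6, 7 high ω3) and 14 for helz2a (7 high ω6, 7 high ω3), and 12 fish with a value for both genes, 6 per diet.

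Relative to the pool, lect2a was low in nearly every fish with a value. Among the high ω6 fish, the log2 ratio was -0.21 in fish 1, -3.34 in fish 2, -3.46 in fish 3, -4.15 in fish 6, -4.01 in fish 7 and -2.83 in fish 8. Among the high ω3 fish, it was -1.52 in fish 1, -0.68 in fish 2, 0.40 in fish 4, -2.05 in fish 5, -1.0 in fish 6, -4.39 in fish 7 and -4.09 in fish 8. In 12 of these 13 fish the value was below that of the pool, and the diets overlapped over almost the whole range. One high ω6 fish was high and the other 5 were low, whereas the high ω3 fish formed a lower pair, fish 7 and 8 of slide A, and 5 higher fish. Over the 4 slides, lect2a averaged -3.00 ± 1.45 in the high ω6 fish (SD, n = 6) and -1.90 ± 1.77 in the high ω3 fish (SD, n = 7).

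The helz2a transcript lay nearer to the pool. Among the high ω6 fish, the log2 ratio was -0.96 in fish 1, -1.18 in fish 2, -3.33 in fish 3, 1.54 in fish 4, -1.56 in fish 6, -0.26 in fish 7 and -0.34 in fish 8. Among the high ω3 fish, it was -1.25 in fish 1, -0.02 in fish 2, -0.28 in fish 3, -0.28 in fish 4, 0.11 in fish 5, -0.08 in fish 6 and -0.78 in fish 7. The high ω3 fish held together, while the high ω6 fish held both the highest and the lowest value, from 2 mates of tank 7. Fish 4, the highest, is the fish whose array stood apart, and fish 3, the lowest, had a signal at background. Over the 4 slides, helz2a averaged -0.87 ± 1.48 in the high ω6 fish and -0.37 ± 0.48 in the high ω3 fish (SD, n = 7 each).

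**Figure D2:**
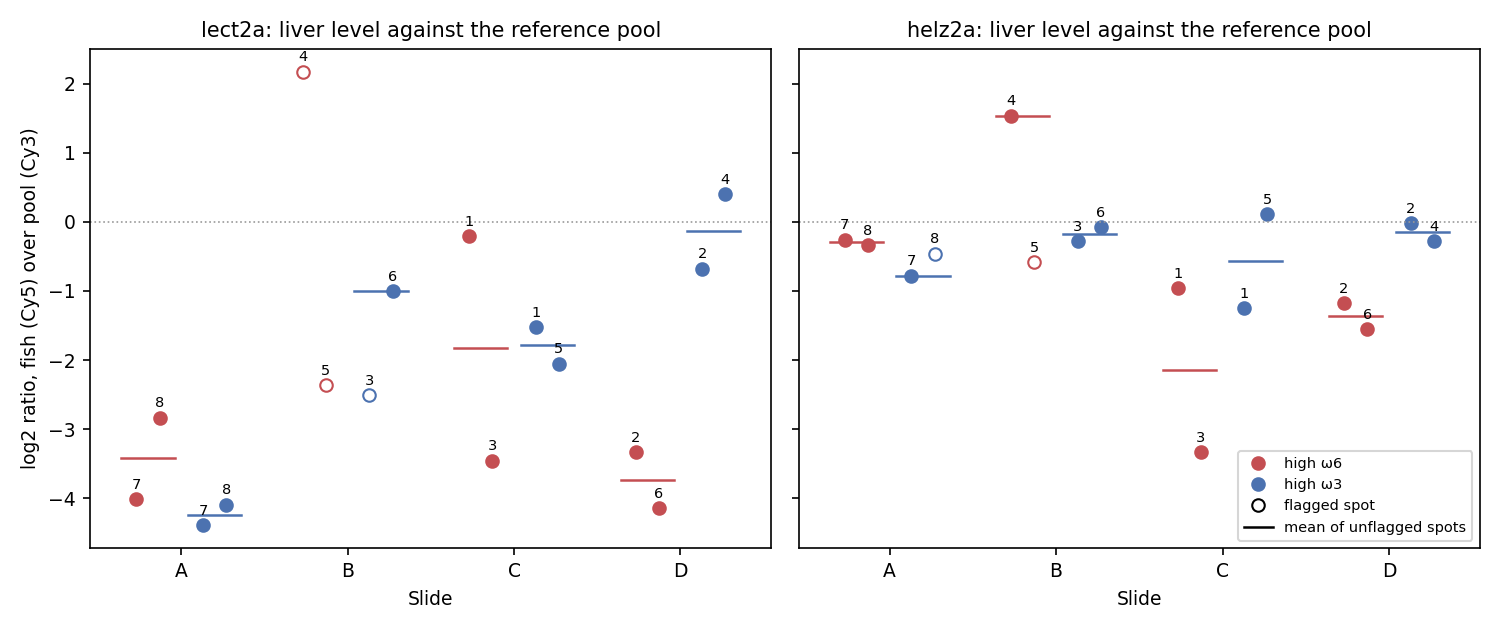
Log2 ratio of each fish over the reference pool for lect2a (left) and helz2a (right), by slide, with high ω6 fish left of high ω3 fish and fish numbers above the points. Horizontal lines are means of unflagged spots and open circles are flagged spots. On slide D both high ω6 fish are below both high ω3 fish for lect2a, while on slide A they are above them.

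The mean of the 16 fish can be set against the pool, which held an equal quantity of RNA from each of them. With flagged spots kept and on a linear scale, the ratio of fish over pool averaged 1.04 for the median probe, and its 5th and 95th percentiles over 25061 probes were 0.833 and 1.34. For lect2a this mean was 0.576, and for helz2a it was 0.820, at the 4.08th percentile. High ω6 fish 4 alone gave 48.8% of the summed ratio of lect2a, with 4.50 times the pool, and the mean of the other 15 fish was 0.314. The second highest ratio of lect2a was 1.24, in high ω3 fish 4. For helz2a, high ω6 fish 4 gave 23.2% of the sum and the mean of the other 15 fish was 0.672. Since its signal was saturated, the ratio of lect2a in this fish, its share of the sum and the mean of 0.576 are lower bounds, and no place among the probes is given for that mean.

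Both transcripts had a larger SD between fish of the same diet than most probes. The SD within diets of lect2a was 1.63 on the log2 scale, against a median of 0.51 over the 25061 probes, and 143 probes had a larger SD. For helz2a the SD was 1.10, with 1313 probes above it. These places are descriptions, and they moved with the treatment of background. Without background correction the SD of lect2a was 1.61, with 1464 probes above it, and that of helz2a was 0.63, below the median of 0.67 of all probes in that setting. With background subtraction, 1425 probes had a larger SD than lect2a. In the authors' deposited table the SD of helz2a was 1.67 and that of lect2a 1.71. Without high ω6 fish 4 the SD of helz2a was 0.84.

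**Figure D3:**
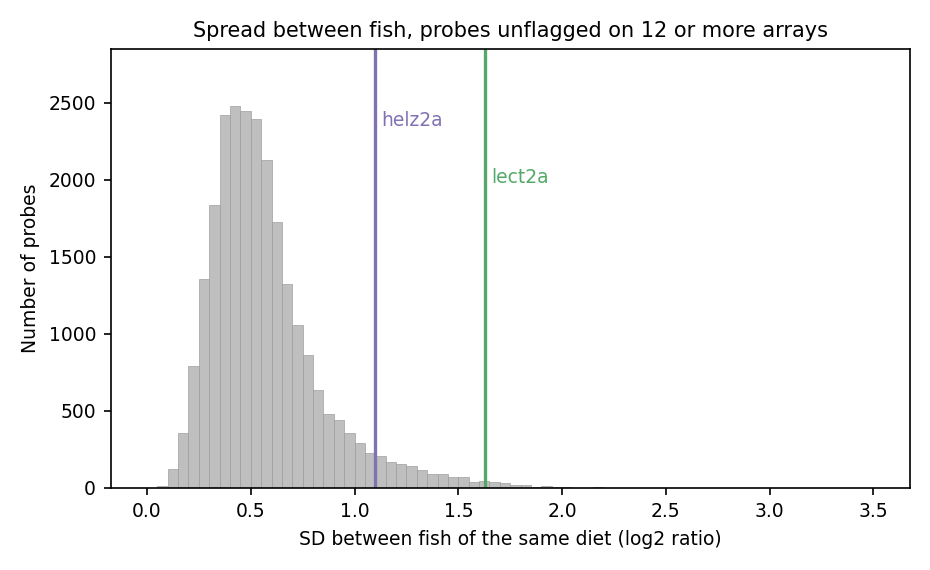
Number of probes (y) by the SD of their log2 ratio between fish of the same diet (x), for the 25061 probes unflagged on at least 12 arrays, with vertical lines at helz2a (1.10) and lect2a (1.63). Most probes lie near the median of 0.51, and both genes lie in the upper tail.

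The spread was larger in the channel of the fish than in that of the pool. After each array was centred on its median spot, the SD over the 16 arrays was 1.83 in Cy5 and 0.89 in Cy3 for lect2a, and 1.13 in Cy5 and 0.63 in Cy3 for helz2a (log2 scale, flagged spots included). The Cy3 SD included a shift between slides. For lect2a the centred Cy3 values lay between 4.31 and 5.86 on slides A and B and between 6.45 and 7.62 on slides C and D. Over all probes the median SD was 0.56 in Cy5 and 0.57 in Cy3. The ratio of the 2 SDs was 2.04 for lect2a and 1.80 for helz2a, larger than in 95.9% and 92.1% of probes. Without high ω6 fish 4 it was 2.14 for lect2a and 1.29 for helz2a, larger than in 98.4% and 83.2% of probes.

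Tank mates were not uniformly alike. For lect2a, both fish had a value in 5 tanks. The mates differed by 3.13 and 1.18 on the log2 scale in tanks 3 and 24 of the high ω6 diet, and by 0.84, 1.05 and 0.30 in tanks 2, 20 and 26 of the high ω3 diet. For helz2a, the mates differed by 0.21, 4.87 and 0.08 in tanks 3, 7 and 24 of the high ω6 diet and by 1.23, 0.00 and 0.19 in tanks 2, 8 and 20 of the high ω3 diet. The largest gap of helz2a was that between the 2 fish of tank 7 named above. The mates of tanks 24 and 26 shared slide A, and the mates of the other tanks lay on different slides.

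On slides C and D, which chose the probes, lect2a averaged -2.79 ± 1.76 in the high ω6 fish and -0.96 ± 1.07 in the high ω3 fish (SD, n = 4 each). The difference was -1.82 on the log2 scale, and 6 of 21583 probes with a value in all 8 fish had a more negative one. The 2 slides did not contribute alike. On slide D, the high ω6 fish (-3.34 and -4.15) were below the high ω3 fish (-0.68 and 0.40), a difference of -3.60, whereas on slide C the high ω6 fish (-0.21 and -3.46) and the high ω3 fish (-1.52 and -2.05) differed by -0.04. Without high ω6 fish 1, the difference over both slides was -2.68, and without high ω3 fish 4 it was -1.37.

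For helz2a on the same slides, the high ω6 fish averaged -1.76 ± 1.08 and the high ω3 fish -0.36 ± 0.62 (SD, n = 4 each). The difference was -1.40, and 49 of the 21583 probes had a more negative one. It was -1.58 on slide C and -1.22 on slide D. Without background correction it was -0.03 on slide C and -0.68 on slide D, and in the authors' deposited table -2.92 and -1.61. Without high ω6 fish 3 of slide C, the fish with a signal at background, the difference over both slides was -0.87. It was -0.35 without background correction and -2.27 in the authors' deposited table, where fish 3 stood at -5.86, so that the size of this difference, though not its direction, depended on how background was handled. In neither gene did the 2 diets separate fully, since high ω6 fish 1 exceeded 3 of 4 high ω3 fish for lect2a and high ω3 fish 1 was below 2 of 4 high ω6 fish for helz2a. All 4 high ω6 fish were below all 4 high ω3 fish in 0.978% of the 21583 probes.

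The fish of slides A and B did not enter the run that selected the probes. No lower level in the high ω6 fish was detected in them for either gene. These fish are not an independent set. The study dropped slide A after no gene was called with it, and ran the remaining slides with and without slide B. How far that choice shaped the values here was not tested. For lect2a, the 2 high ω6 values (-4.01 and -2.83) and the 3 high ω3 values (-4.39, -4.09 and -1.0) overlapped. They averaged -3.42 ± 0.84 in the high ω6 fish (SD, n = 2) and -3.16 ± 1.87 in the high ω3 fish (SD, n = 3). The difference was -0.26 (SE 1.01, 95% confidence interval -2.61 to 2.09, adjusted p = 0.999, limma with Benjamini-Hochberg adjustment over 24969 probes). An exact two-sided permutation test gave p = 1.00 and could not go below 0.10 with these numbers of fish.

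The 2 unflagged high ω6 values of lect2a were both from slide A and from mates of tank 24, and 2 of the 3 high ω3 values were from slide A and from mates of tank 26, so this difference also compared slides and tanks. With tank as a random block it was -0.70 (limma adjusted p = 1.00), and over tank means, 1 high ω6 tank against 2 high ω3 tanks, it was -0.80 (exact permutation p = 1.00). On slide A alone, where diet is tank 24 against tank 26, the high ω6 fish were 0.82 above the high ω3 fish, and this was also the difference when slide was a term of the model (95% confidence interval -0.47 to 2.11, limma adjusted p = 0.991). On slide B, no unflagged high ω6 value was left, so that nothing could be compared without slide A. With flagged spots kept, the difference on both slides was 1.25 (limma adjusted p = 0.999), including the saturated spot of high ω6 fish 4.

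For helz2a, the 3 high ω6 values (1.54, -0.26 and -0.34) averaged 0.31 ± 1.06 and the 3 high ω3 values (-0.28, -0.08 and -0.78) averaged -0.38 ± 0.36 (SD, n = 3 each). The difference was 0.69 (SE 0.55, 95% confidence interval -0.55 to 1.94, limma adjusted p = 0.999). The exact two-sided permutation test gave p = 0.50 and could not go below 0.10. The size of this value depended on high ω6 fish 4, since without that fish the difference was 0.08. The high ω6 values then left were all from slide A, while the high ω3 values were from both slides. With slide as a term and fish 4 included, the difference was 1.10 (95% confidence interval 0.15 to 2.05, limma adjusted p = 0.991). It was 0.48 on slide A and 1.71 on slide B, where high ω6 fish 4 gave the only high ω6 value.

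Across all probes, limma called 0 of 24969 on slides A and B at an adjusted p of 0.10 or less, a share of 0%. An unadjusted limma p under 0.05 was reached by 492 probes, 1.97% of those tested. Without any difference between the diets, that threshold gives a larger share on average. Data were simulated with the missing values of slides A and B, but with the spread within diets over all 16 fish. In these data, 22 of 67 probes with a log2 change of 2 were recovered. With a change of 4 it was 59 of 66, and with a change of 1 it was 0 of 67, and 8 unchanged probes were called. The simulated fish were independent, with no slide or tank effects, so these shares may not carry over to the real arrays. Changed probes were drawn from all 25061 probes kept, whose median SD within diets was 0.51, against 1.63 for lect2a and 1.10 for helz2a. The shares are therefore not those of the 2 genes. The fish of a tank shared their tank, which the limma model of the real data did not take into account.

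Levels of lect2a were also compared between slides. The 4 fish of slide A lay between -4.39 and -2.83, whereas the 8 fish of slides C and D lay between -4.15 and 0.40. With diet in the model, the difference of slide A from the mean of the other slides was -2.09 on the log2 scale (SE 0.81, limma adjusted p = 0.184), and for helz2a the difference was 0.21 (adjusted p = 0.897). For lect2a, slide B had only 1 unflagged value, -1.0 in a high ω3 fish, yet it weighed as much in that mean as slide C or D. The contrast had been picked with the values in view, and 6.29% of 24916 probes passed an adjusted p of 0.10 in it. In the authors' deposited table lect2a passed it, with -2.21 (limma adjusted p = 0.0918). The fish of this slide were also the only ones from tanks 24 and 26, so slide and tank cannot be told apart.

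The 2 transcripts were compared across the livers in which both had a value. Over 12 fish, Pearson r was 0.38 (permutation p = 0.229, adjusted p = 0.457) and Spearman rho was 0.38 (permutation p = 0.218, adjusted p = 0.437). The pooled value shares the contrast between diets that chose both probes. The values within a diet leave out that contrast. However, 4 of the 6 fish in each diet were those of slides C and D, so the choice of the probes can enter these values too. Within the 6 high ω6 fish, r was 0.15 (exact permutation p = 0.721, adjusted p = 0.721) and rho was 0.26 (exact permutation p = 0.658, adjusted p = 0.803). Within the 6 high ω3 fish, r was 0.36 (exact permutation p = 0.486, adjusted p = 0.648) and rho was 0.14 (exact permutation p = 0.803, adjusted p = 0.803). No correlation within a diet was detected, and in each diet 4 of 6 fish lay on the same side of the mean for both genes.

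After the fitted effects of diet and slide had been subtracted, the values of the 12 fish gave r = 0.55 (permutation p = 0.0625, adjusted p = 0.250) and rho = 0.59 (permutation p = 0.0447, adjusted p = 0.179). The 4 correlations formed 1 family for the adjustment, all tests were two-sided, and values left after subtraction of fitted effects are not fully exchangeable. They are also not independent of each other, so permutation p-values with diet and slide subtracted can be too small, in every setting. Diet and slide were subtracted as separate terms, so a diet difference that varied between slides stayed in the values. The contrast on slides C and D that chose both probes can therefore still enter this correlation. Only 1 of the 12 fish, high ω3 fish 6, lay on slide B. The slide term fitted its values fully, so it added nothing, and r was 0.55 without it. Without the 2 fish farthest from the median of lect2a, r was 0.42 for the pooled values (permutation p = 0.237, n = 10) and 0.51 for those with diet and slide subtracted (permutation p = 0.126, n = 10). This could not be done within a diet, where 4 fish would be left. Over the means of the 8 tanks, each taken over all fish with a value for that gene, r was 0.53 (exact permutation p = 0.178). In tanks 7, 8 and 26 the 2 genes were not averaged over the same fish. The helz2a mean of tank 7 included high ω6 fish 4, so this r does not compare the same livers throughout.

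The correlation with diet and slide subtracted moved with the spots and fish included. In each of these settings the contrast that chose both probes can enter it. With the mean in place of the median signal of a spot, r was 0.83 (permutation p = 0.00092, adjusted p = 0.00368). With flagged spots kept, it was 0.74 over 16 fish (permutation p = 0.00091, adjusted p = 0.00364), and without high ω6 fish 4, in which both genes had their highest value, it was 0.56 (permutation p = 0.0281, adjusted p = 0.112). The rho of the same values was 0.81 (permutation p = 0.00026, adjusted p = 0.00104), and 0.71 without this fish (permutation p = 0.00393, adjusted p = 0.0157). Without this fish the adjusted p of the rank correlation thus stayed under 0.05, and that of Pearson r did not. The spots added in this setting are those flagged as poor or empty. With flagged spots removed and without high ω3 fish 5, Pearson r was 0.81 (permutation p = 0.00163, adjusted p = 0.00489). Across the other probes, the rho of 0.38 with lect2a was reached or exceeded by 20.8% of 14905 probes with at least 12 shared fish, and that with helz2a by 9.49% of 18764 probes. In either direction, the shares were 42.2% and 20.3%. All of these points share the array on which both spots lay.

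**Figure D4:**
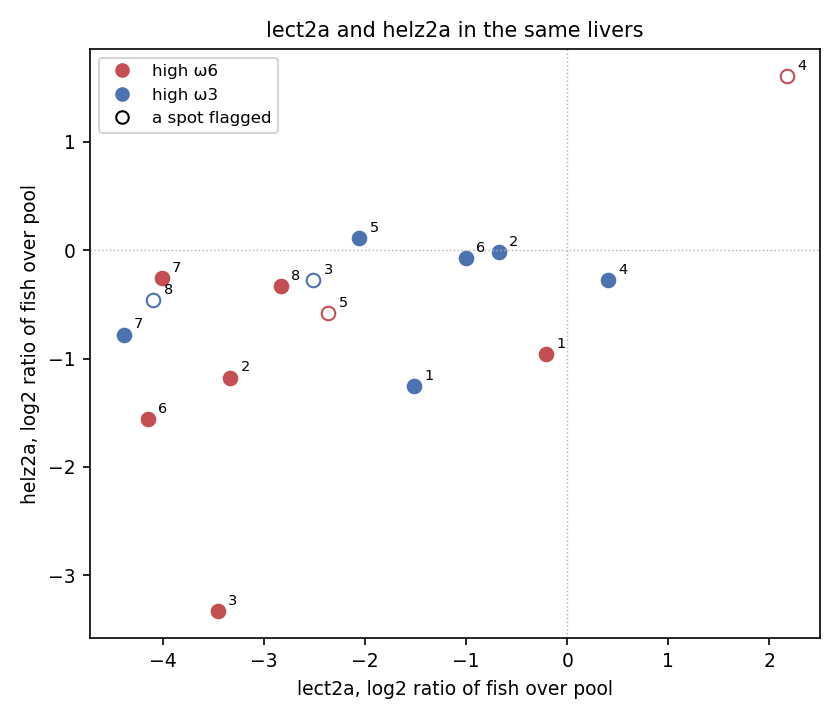
Log2 ratio over the pool of helz2a (y) against lect2a (x) in the same liver, with the fish number beside each point, for high ω6 and high ω3 fish. Open circles are fish in which at least 1 of the 2 spots was flagged. The 12 filled points give r = 0.38, and high ω6 fish 4 lies alone at the upper right with flagged spots kept.

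Other probes followed each gene more closely, and they are named by probe only. The 3 probes most like lect2a over the fish with both values were C170R150 (rho = 0.96, n = 13), C114R157 (rho = 0.92, n = 12) and C257R133 (rho = 0.91, n = 13). Their log2 ratios covered narrower ranges, from -1.45 to 0.82, from -1.98 to 0.49 and from -0.61 to 0.29, against -4.39 to 0.40 for lect2a. The 3 probes most like helz2a were C260R054 (rho = 0.96, from -1.78 to 2.27), C250R117 (rho = 0.87, from -0.80 to 0.80) and C154R123 (rho = 0.85, from -1.10 to 0.65), each over 13 fish. They were the highest of 14905 and 18764 probes compared, so these values describe the ranking and are not tests.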

How the data were processed

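Liver RNA of 16 fish was measured on 2-colour arrays (Cy5 the fish, Cy3 the pool). The authors deposited the scanner output, with the intensity of signal and local background of each spot, not background-subtracted, and a loess-normalized table of log2 ratios. Here, values of flagged spots were removed, background was corrected by normexp on the median signals (offset 50), and the ratios were normalized array by array with loess in limma 3.58.1 (R 4.3.3). Probes unflagged on at least 12 arrays were kept. Diets were compared with limma, with diet alone in the model, and with exact permutation tests, and the correlations with exact tests or 100000 permutations in Python 3.11.15 with scipy 1.17.1. Limma was tested on simulated data. Precision is limited by the number of arrays.

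The members, lists and tests were chosen with earlier results of these data known. The 2 probes were always named, and for each the 3 probes of highest Spearman rho. Lists of acute phase, interferon, PPARα and cell type genes had been drawn up, but could not be counted because the files used here give no gene name to a probe. Alternatives were other background corrections, the mean signal, median centring, the deposited table, flagged spots kept, slide, fish number or tank in the model, tank means, rank products with 100 permutations and each fish left out. The contrast of slide A, the comparison of the SD across settings and the correlation with flagged spots kept but without high ω6 fish 4 were added later, with the data in view.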

Additional observations from a re-analysis of the deposited data

Results flagged for a closer look

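Among the 6 high ω6 fish with a value for lect2a, the -0.21 of fish 1 was separated from the other 5, which lay between -4.15 and -2.83, by more than Dixon's 95% critical value (gap over range 0.666, critical value 0.625). The groups examined were 4, lect2a and helz2a in each diet, and about 1 group in 20 exceeds this value by chance. The spot of lect2a in high ω6 fish 4, which was left out because it was flagged as poor, gave a log2 ratio of 2.17 when flagged spots were kept, above every high ω3 fish, of which the highest was 0.40 without flagged spots. Its Cy5 signal was saturated, at 65535, and the same array had the largest SD of log2 ratios, 1.30. Whether the level of the fish or the array set this value was not tested.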

How the results depend on the processing

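The difference of lect2a between the diets on slides A and B was near 0 and changed sign in 5 of 19 alternatives, to 1.25 with flagged spots kept, to 0.82 with slide as a term, to 0.82 with the replicate block (adjusted p = 0.319), to 0.33 without high ω6 fish 7 and to 0.82 without high ω3 fish 6. All of the values of 0.82 were the difference between the same fish of slide A, so they are 1 comparison. With 1 fish left out the difference of lect2a ranged from -0.88 to 0.82, and that of helz2a from 0.08 to 1.02. That of helz2a kept its sign in all 19 alternatives and passed the threshold in none. For both genes, some of the 19 could not change the difference. They left out a fish whose spot was already flagged, or, as rank products did, changed only the test. On slides C and D, the difference with 1 fish left out ranged from -2.68 to -1.37 for lect2a and from -1.69 to -0.87 for helz2a. Over all 4 slides it was -1.09 for lect2a, with a range of -1.65 to -0.71, and -0.50 for helz2a, with a range of -0.90 to -0.09, and it was 0.02 for helz2a without background correction.

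The labels tie equal fish numbers of the 2 diets to no shared tank, litter or day. The deviations of same-numbered fish from their diet mean correlated over probes with r from 0.05 to 0.50 in 8 pairs, over 0.1 in 7 of them, and 11 of 16 fish correlated best with their own number, while 4 pairs also shared a slide. With fish number as a replicate block, limma called 646 of 24969 probes in place of 0, and neither gene was among them. That fit had nearly as many terms as fish. Its diet difference rested at most on the 2 numbers shared on slides A and B. For helz2a only number 7 had an unflagged value in both diets, so its 0.52 is the difference of that 1 pair. With no block and without high ω6 fish 8, limma called 1 probe, and between 0 and 1 with any fish left out. Rank products called 0 probes.

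The correlation with diet and slide subtracted passed the threshold in 3 of 21 alternatives, 0.83 with the mean signal, 0.74 with flagged spots kept and 0.81 without high ω3 fish 5, and with 1 fish left out it ranged from 0.38 to 0.81. In every setting the contrast that chose both probes can enter this correlation. Pooled, the correlation ranged from 0.33 to 0.48. Within a diet, leaving out a fish of that diet would leave 5 fish, so that value was not computed. The lower lect2a on slide A ranged from -2.58 to -1.66 with 1 fish left out, and passed the threshold in the deposited table and without high ω6 fish 6 (-2.38, limma adjusted p = 0.0917). Without high ω3 fish 6 it could not be computed, since slide B then had no lect2a value. The difference of helz2a on that slide was -0.33 without background correction and -0.10 without high ω6 fish 3, and from -0.10 to 0.62 with any 1 fish left out. The causes were not tested.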
